A study of Mus musculus with 9 samples.

Results

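The genes described here are 40 genes of the sarcomere, of muscle calcium handling and of muscle energy supply, picked by gene symbol from the 22587 genes of the deposited tables. All 40 were found and all 40 passed the filter on low counts, as did 21287 genes in all. They were sorted into 11 fast fibre isoforms, 8 slow or cardiac isoforms, 11 structural genes, 4 genes of the triad and 6 genes of energy supply. The samples were whole eyeballs of wild-type female BALB/C mice, with 3 libraries in each of 3 groups. T.chuii mice were injected with scopolamine, a blocker of muscarinic acetylcholine receptors used to induce dry eye, and were fed 300 mg/kg of the green alga Tetraselmis chuii. DES mice were injected with scopolamine and given water. CON mice were given water and not injected, so drug and injection cannot be told apart. Treatment lasted 2 weeks from 6 weeks of age, the tissue age was given as postnatal day 56, and 15 mice were used in all. Whether each library is a different mouse is not stated in the labels, so p-values here reflect only how far libraries spread, part of which may be technical.

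A sarcomere is the contractile unit of striated muscle. Thin filaments of actin, tropomyosin and troponin slide past thick filaments of myosin, titin and nebulin set their frame, and Z-disc proteins anchor them. Contraction starts at the triad, where a voltage-sensing channel in the cell membrane opens the ryanodine receptor and calcium leaves the sarcoplasmic reticulum, to be pumped back by a calcium ATPase. Fast and slow fibres use different genes for many of these parts. The muscles that move the eye attach to the outside of the globe and hold mostly fast fibres, with slow fibres and a myosin heavy chain found in few other muscles, Myh13. The iris and ciliary muscles inside the globe are smooth muscle in mammals.

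Library totals lay between 39.1 and 64.6 M reads, and no pair of libraries agreed within sampling noise. Rod and corneal epithelium markers, which define the labelled tissue, were present in every library. T.chuii 1, DES 1 and CON 2 stood apart: the 7 rod markers summed to 7573, 13395 and 14326 CPM (read counts scaled to library size) there, against at least 25430 CPM in the other libraries, and the 7 corneal epithelium markers to 40994, 44762 and 73152 CPM, against at most 29443 CPM. These libraries are therefore left out together beside the results that they touch. In bulk tissue, fewer muscle cells and less muscle RNA per cell cannot be told apart.

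The 40 genes took up more of the reads in T.chuii than in CON, and they were high or low together from library to library. Together they held 2.68%, 1.38% and 0.627% of reads in T.chuii, 1.47%, 0.470% and 0.268% in DES and 0.471%, 0.168% and 0.328% in CON. The lowest T.chuii library lay above the highest CON library, and DES spanned both groups. The mean share was 1.57% ± 1.04 in T.chuii, 0.734% ± 0.641 in DES and 0.322% ± 0.152 in CON (SD, n = 3). Counting error was small beside this, since the Wilson 95% interval of any share reached at most 0.00462 percentage points to either side. T.chuii 1 was the highest library for 40 of 40 members. The lowest library was CON 2 for 32 members, DES 3 for 7 and T.chuii 3 for 1. The highest library exceeded the lowest by 4.92 times for Pygm, by 70.8 times for Actc1 and by a median of 15.2 times over the members.

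**Figure D1:**
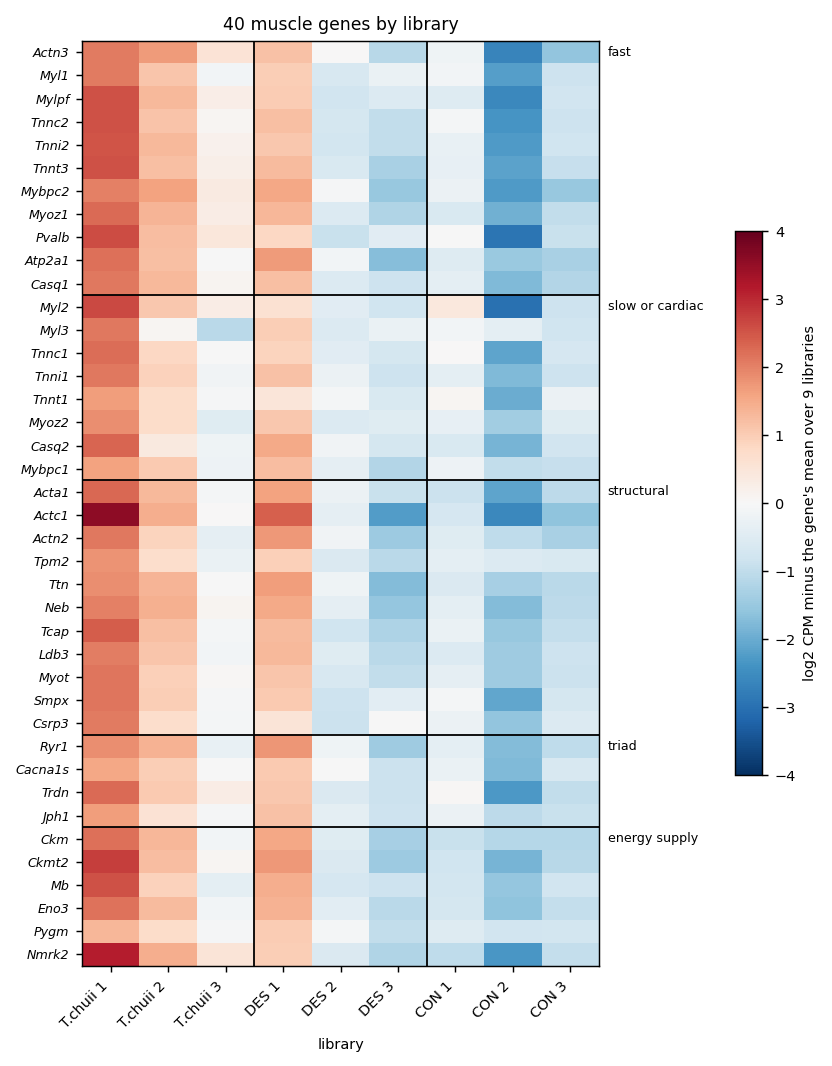
Heat map of the 40 members (rows, by class) in the 9 libraries (columns), as log2 scaled CPM minus the gene's mean over the 9 libraries. T.chuii 1 is red and highest in every row, and CON 2 is the bluest column for 32 of the 40 members.

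DES vs CON asks what scopolamine injection changed, T.chuii vs DES what the alga changed in injected mice, and T.chuii vs CON how far fed, injected mice stand from mice without injection. No member passed the test in any comparison. The test was limma-voom on the read counts, adjusted over all 21287 genes by the Benjamini-Hochberg method at 0.05, and it called 0 of 40 members and 0% of all genes in each of T.chuii vs CON, T.chuii vs DES and DES vs CON. The smallest adjusted p of a member was 0.986, 1.00 and 1.00 in these comparisons (limma-voom). Limma-trend on log2(FPKM + 1) likewise called 0 members and 0 genes in each, with 38, 1 and 0 members at an unadjusted p under 0.05, against 5.06%, 1.3% and 1.46% of all genes. The directions and sizes below are descriptions of these libraries.

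Means nonetheless lay on the same side for every member. All 40 members had a higher mean in T.chuii than in CON, with a median log2 change of 2.09, against -0.04 over all genes tested. All 40 were also higher in mean in T.chuii than in DES (median 1.17, all genes -0.03) and in DES than in CON (median 0.98, all genes -0.02). Without T.chuii 1, DES 1 and CON 2 the DES vs CON median was -0.08, with 13 members higher in mean, and without DES 1 alone it was 0.31. The other medians without the 3 libraries were 1.17 in T.chuii vs CON and 1.29 in T.chuii vs DES. These comparisons share libraries, and the members were high or low together in a library, so they are not 40 separate observations of a group difference. At an unadjusted limma-voom p under 0.05, 39 members were higher in T.chuii than in CON (3.15% of all genes), 1 was higher in T.chuii than in DES (0.747%) and 1 in DES than in CON (0.597%). Every T.chuii library lay above every CON library for 33 members (5.45% of all genes). No member had such a separation between T.chuii and DES (2.3% of genes) or between DES and CON (2% of genes). Same-numbered T.chuii and DES libraries were also compared as pairs, a pairing that rests on these data and not on the labels. By correlation of deviations from the group means, T.chuii 3 was closer to DES 2 (r = 0.46) than to DES 3 (r = 0.17). In pairs 1, 2 and 3, 40, 40 and 38 of the 40 members were higher in T.chuii, against 41.3%, 50.3% and 50.2% of all genes. Hence 38 members were higher in all 3 pairs (10.5% of all genes), and Myl3 and Csrp3 were not higher in T.chuii 3 than in DES 3. The members' share of reads fell from library 1 to library 3 in both groups, so these pairs match libraries by rank. The counts within pairs follow in part from that order, since the share in T.chuii 3 (0.627%) lay below that in DES 1 (1.47%). The members' median log2 ratio was 0.94, 1.60 and 0.97 in the 3 pairs.

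**Figure D2:**
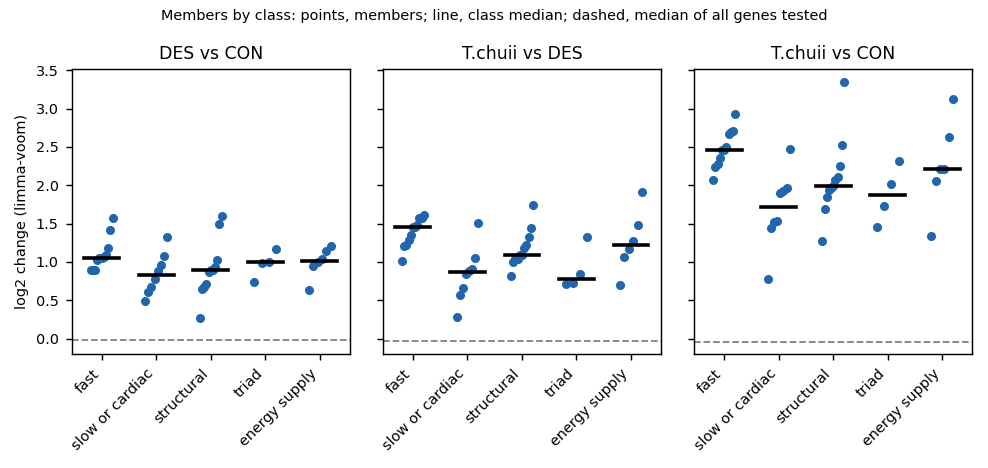
Log2 change from limma-voom (vertical axis) of each member (points) by class, with the class median as a solid line and the median of all genes tested as a dashed line, in DES vs CON, T.chuii vs DES and T.chuii vs CON. All points lie above 0, and in T.chuii vs CON the fast class has the highest median, 2.46.

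Fast isoforms build the contractile apparatus of fast-twitch fibres, and the most abundant members per length were among them. On the FPKM scale, fragments scaled to transcript length and library size, the 4 highest members by mean level over all libraries were fast genes: Tnnc2 at 813, Tnnt3 at 729, Tnni2 at 705 and Myl1 at 693 FPKM. The spread between libraries was wider than the gaps between them. Ryr1 had the lowest mean level, 0.906 FPKM. The fast class had a median log2 change of 2.46 in T.chuii vs CON, 1.45 in T.chuii vs DES and 1.06 in DES vs CON. All T.chuii libraries were above all CON libraries for 10 of its 11 genes (5.45% of all genes), the exception being Myl1, an essential myosin light chain. Since the members were high or low together, such counts by class are not separate observations.

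Tnni2, the inhibitory subunit of fast troponin (chromosome 7, 142441816 to 142444410 on GRCm38), was at 2052, 872 and 400.1 CPM in T.chuii, 754, 213 and 179 CPM in DES and 287, 74.0 and 205 CPM in CON. T.chuii 1 stood highest and CON 2 lowest, and the T.chuii libraries did not overlap with CON but did with DES. The log2 changes of Tnni2 were 2.46 ± 0.72 for T.chuii vs CON, 1.57 ± 0.73 for T.chuii vs DES and 0.89 ± 0.69 for DES vs CON. Tnnt3, which lies nearby and encodes the tropomyosin-binding fast troponin subunit (chromosome 7, 142498771 to 142516213), was at 3028, 1175 and 610.3 CPM in T.chuii, 1235, 339 and 210.0 CPM in DES and 411, 117 and 272 CPM in CON. T.chuii 1 was again highest and CON 2 lowest, but DES 1 lay above T.chuii 2 here and below it for Tnni2. The log2 changes of Tnnt3 were 2.46 ± 0.74 for T.chuii vs CON, 1.57 ± 0.76 for T.chuii vs DES and 0.89 ± 0.71 for DES vs CON.

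Mylpf, the regulatory light chain of fast myosin, measured 1206, 499.7 and 247 CPM in T.chuii, 415, 120.3 and 141 CPM in DES and 144, 34.0 and 120.4 CPM in CON. DES 2 and DES 3 lay among the CON libraries, while DES 1 was above T.chuii 3, and the log2 change for T.chuii vs CON was 2.67 ± 0.70. Pvalb, the calcium buffer parvalbumin, which speeds relaxation in fast fibres of rodents, had 924, 362 and 208 CPM in T.chuii, 268, 82.7 and 112 CPM in DES and 152, 20.2 and 82.7 CPM in CON. It is also made by some retinal neurons. Its T.chuii libraries all lay above CON (log2 change 2.71 ± 0.77), and CON 2 was far below every other library. Atp2a1, the calcium pump of the fast sarcoplasmic reticulum, was at 1745, 867 and 371 CPM in T.chuii, 1218, 347 and 115 CPM in DES and 265, 134 and 152 CPM in CON. DES 3 was the lowest library for this gene and DES 1 exceeded T.chuii 2, and the log2 change was 2.24 ± 0.78 for T.chuii vs CON and 1.21 ± 0.79 for T.chuii vs DES.

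The smallest p of any member belonged to Actn3, the alpha-actinin of fast Z-discs, at 38.5, 29.6 and 13.2 CPM in T.chuii, 20.5, 9.12 and 4.25 CPM in DES and 8.09, 1.45 and 3.02 CPM in CON. Its T.chuii libraries lay above all CON libraries and overlapped with DES, with log2 changes of 2.93 ± 0.69 for T.chuii vs CON, 1.36 ± 0.63 for T.chuii vs DES and 1.58 ± 0.74 for DES vs CON. In T.chuii vs CON this gave an unadjusted limma-voom p of 0.00152 and an adjusted p of 0.986. The other fast genes, Tnnc2 (calcium-binding troponin subunit), Mybpc2 (fast myosin-binding protein), Myoz1 (Z-disc calsarcin), Casq1 (calcium store protein of the reticulum) and Myl1, had log2 changes between 2.07 and 2.70 in T.chuii vs CON.

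Slow or cardiac isoforms were the rarer counterparts, with lower median changes than the fast genes. Their median log2 change was 1.71 in T.chuii vs CON, 0.86 in T.chuii vs DES and 0.83 in DES vs CON. Only Tnni1 and Casq2 of the 8 had every T.chuii library above every CON library (5.45% of all genes). Tnni1, the slow troponin inhibitor (chromosome 1, 135783033 to 135810989), was at 54.4, 24.3 and 11.6 CPM in T.chuii, 28.5, 10.9 and 7.12 CPM in DES and 9.73, 3.72 and 7.16 CPM in CON. T.chuii 3 lay just above CON 1, and DES overlapped with both, with log2 changes of 1.96 ± 0.66 for T.chuii vs CON, 0.88 ± 0.61 for T.chuii vs DES and 1.08 ± 0.69 for DES vs CON.

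Tnnt1, the slow tropomyosin-binding troponin subunit, measured 103, 53.1 and 31.2 CPM in T.chuii, 44.7, 30.3 and 20.8 CPM in DES and 33.5, 8.08 and 27.5 CPM in CON. T.chuii 3 lay below CON 1, so the groups overlapped (log2 change 1.53 ± 0.56 for T.chuii vs CON). Tnnc1, the troponin calcium sensor of slow fibres and heart, was at 43.4, 16.4 and 9.13 CPM in T.chuii, 17.3, 6.81 and 5.77 CPM in DES and 9.49, 2.17 and 5.80 CPM in CON, and again T.chuii 3 was below CON 1 (log2 change 1.92 ± 0.68). Myl2, the regulatory light chain of slow fibres and ventricle, had 30.3, 10.4 and 6.03 CPM in T.chuii, 7.40, 3.57 and 2.84 CPM in DES and 6.59, 0.620 and 2.75 CPM in CON. CON 2 held only 36 reads of Myl2, the lowest count of any member, and the log2 change was 2.47 ± 0.80.

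Mybpc1, the slow myosin-binding protein C, was at 178, 121 and 50.9 CPM in T.chuii, 139, 45.5 and 26.1 CPM in DES and 51.0, 29.8 and 30.9 CPM in CON. T.chuii 3 and CON 1 were within 1 CPM of each other, and the log2 changes were 1.53 ± 0.60 for T.chuii vs CON, 0.91 ± 0.59 for T.chuii vs DES and 0.61 ± 0.59 for DES vs CON. Myl3, the essential light chain of slow fibres and ventricle, had the lowest log2 change of any member in T.chuii vs CON and in T.chuii vs DES. It was at 8.34, 2.03 and 0.926 CPM in T.chuii, 3.85, 1.31 and 1.63 CPM in DES and 1.80, 1.48 and 1.12 CPM in CON, with T.chuii 3 the lowest library of all. The log2 changes of Myl3 were 0.77 ± 0.72 for T.chuii vs CON, 0.28 ± 0.71 for T.chuii vs DES and 0.49 ± 0.73 for DES vs CON, and it was the only member with an unadjusted p above 0.05 in T.chuii vs CON. Myoz2, a Z-disc calsarcin, and Casq2, the cardiac calcium store protein, had log2 changes of 1.44 ± 0.63 and 1.90 ± 0.74 in that comparison.

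Structural genes included the widest range among libraries. The class had a median log2 change of 2.00 in T.chuii vs CON, 1.10 in T.chuii vs DES and 0.89 in DES vs CON. All 11 of its genes had every T.chuii library above every CON library (5.45% of all genes). Acta1, the actin of skeletal muscle thin filaments (chromosome 8, 123891758 to 123894775), was at 2234, 1098 and 430.0 CPM in T.chuii, 1377, 387 and 245 CPM in DES and 248, 103 and 218 CPM in CON. DES 1 exceeded T.chuii 2, DES 2 lay between T.chuii and CON, and DES 3 lay within CON. Its log2 changes were 2.53 ± 0.69 for T.chuii vs CON, 1.03 ± 0.71 for T.chuii vs DES and 1.50 ± 0.67 for DES vs CON, and the DES vs CON difference had the smallest p of any member there (unadjusted 0.048, adjusted p = 1.00, limma-voom).

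Actc1 encodes the heart actin, which is also made in developing skeletal muscle (chromosome 2, 114047282 to 114052875). It was at 721, 165 and 61.6 CPM in T.chuii, 321, 47.3 and 13.0 CPM in DES and 38.3, 10.2 and 19.8 CPM in CON. T.chuii 1 and DES 1 were far above the rest and DES 3 was among the CON libraries. Actc1 had the highest log2 change of any member in T.chuii vs CON (3.34 ± 1.16) and in DES vs CON (1.60 ± 1.13), with the widest standard errors among the members. The ratio of Actc1 to Acta1 on the FPKM scale was 0.327, 0.152 and 0.145 in T.chuii, 0.237, 0.124 and 0.0539 in DES and 0.157, 0.0996 and 0.0922 in CON, so the groups overlapped. These actins are near-identical in sequence, and the counting may have divided reads between them.

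Ttn, the giant spring protein titin (chromosome 2, 76703980 to 76982557), was at 1217, 870.3 and 336 CPM in T.chuii, 1081, 301 and 102 CPM in DES and 224, 136 and 160.0 CPM in CON. DES 1 was close to T.chuii 1, DES 3 was the lowest library, and the log2 change was 2.07 ± 0.74 for T.chuii vs CON. Neb, nebulin, which lines the thin filament, had 427, 288 and 116 CPM in T.chuii, 309, 83.5 and 36.7 CPM in DES and 82.0, 32.1 and 51.2 CPM in CON. The pattern was like that of Ttn, except that CON 2 was lowest, and the log2 change was 2.25 ± 0.72. Tpm2, beta-tropomyosin, measured 1397, 654 and 330.2 CPM in T.chuii, 781, 267 and 188 CPM in DES and 302, 273 and 262 CPM in CON. Its CON libraries lay within a narrow range, DES 2 lay within that range and DES 3 below it, and it had the lowest log2 change of any member in DES vs CON (0.27 ± 0.55).

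The other structural genes are the Z-disc proteins Actn2, Tcap, Ldb3, Myot and Csrp3 and the muscle protein Smpx. Their log2 changes lay between 1.69 and 2.11 in T.chuii vs CON.

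**Figure D3:**
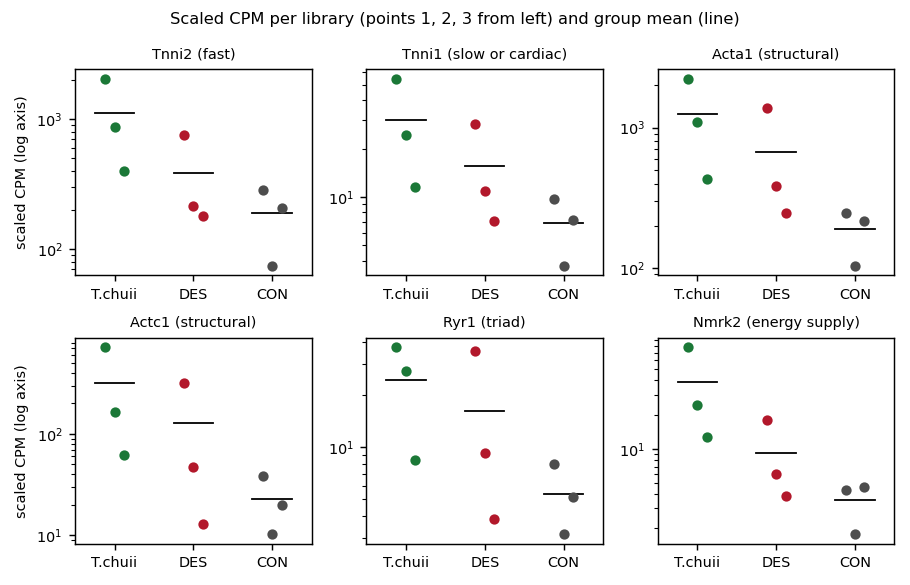
Scaled CPM (log axis) of Tnni2, Tnni1, Acta1, Actc1, Ryr1 and Nmrk2 in each library (points, replicates 1, 2 and 3 from left to right in T.chuii, DES and CON) with the group mean (line). In each panel the T.chuii points all lie above the CON points, and DES overlaps with T.chuii.

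The triad genes had median log2 changes of 1.87 in T.chuii vs CON, 0.78 in T.chuii vs DES and 1.00 in DES vs CON. All 4 had T.chuii libraries above CON throughout (5.45% of all genes). Ryr1, the calcium release channel (chromosome 7, 29003340 to 29125179), was at 37.5, 27.2 and 8.45 CPM in T.chuii, 35.4, 9.30 and 3.84 CPM in DES and 7.95, 3.15 and 5.13 CPM in CON. T.chuii 3 was only just above CON 1, DES 1 was close to T.chuii 1, and the log2 change was 2.02 ± 0.79 for T.chuii vs CON. Cacna1s, the voltage sensor that opens it, had 19.6, 13.3 and 6.69 CPM in T.chuii, 13.8, 6.74 and 3.75 CPM in DES and 5.57, 1.98 and 4.29 CPM in CON. Its lowest T.chuii library lay below both DES 1 and DES 2, with a log2 change of 1.73 ± 0.56. Trdn, triadin, which ties the release channel to the calcium store, was at 323, 136 and 82.0 CPM in T.chuii, 140.0, 44.4 and 37.0 CPM in DES and 68.5, 13.5 and 33.4 CPM in CON. T.chuii 3 was above every CON library and below DES 1, and the log2 change was 2.32 ± 0.69. Jph1, which holds the membranes of the triad together, had 1.46 ± 0.56.

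Energy supply genes had median log2 changes of 2.21 in T.chuii vs CON, 1.22 in T.chuii vs DES and 1.02 in DES vs CON. All 6 were above CON in every T.chuii library (5.45% of all genes). Ckm, the muscle creatine kinase that buffers ATP, was at 1844, 997 and 373 CPM in T.chuii, 1175, 283 and 157 CPM in DES and 215, 182 and 179.7 CPM in CON. CON was tight, DES 3 lay below it and DES 1 reached above T.chuii 2 (log2 change 2.21 ± 0.70 for T.chuii vs CON). Mb, the oxygen carrier myoglobin, measured 1692, 545 and 223 CPM in T.chuii, 799.7, 182 and 163 CPM in DES and 174, 98.1 and 170.1 CPM in CON. T.chuii 1 was highest, T.chuii 3 lay above every CON library and DES 1 lay above both T.chuii 2 and T.chuii 3 (log2 change 2.06 ± 0.73).

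Nmrk2, a muscle kinase that phosphorylates nicotinamide riboside on the way to NAD (chromosome 10, 81198170 to 81202265), was at 78.4, 24.1 and 12.7 CPM in T.chuii, 17.8, 6.00 and 3.84 CPM in DES and 4.39, 1.77 and 4.60 CPM in CON. It had the highest log2 change and the smallest p of any member in T.chuii vs DES (1.91 ± 0.71, unadjusted p = 0.0224, adjusted p = 1.00, limma-voom). Only DES 1 exceeded any T.chuii library, the third. The log2 change in T.chuii vs CON was 3.12 ± 0.77. With same-numbered libraries as blocks the T.chuii vs DES value was 1.94 ± 0.42 (adjusted p = 1.00), and in a fit of only the T.chuii and DES libraries 2.00 ± 0.19 (adjusted p = 0.0778, limma-voom). Both of these fits rest on a pairing taken from the data and not from the labels. Nmrk2 fell from library 1 to library 3 in both groups, so the pairing matched its libraries by rank. The smaller standard errors and the lower adjusted p therefore cannot be read as added evidence of a difference. Ckmt2 (mitochondrial creatine kinase), Eno3 (muscle enolase) and Pygm (muscle glycogen phosphorylase) had log2 changes of 2.63 ± 0.81, 2.21 ± 0.66 and 1.34 ± 0.47 in T.chuii vs CON.

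Fast genes outweighed slow ones in every library, and by the most in T.chuii. The summed FPKM of the 11 fast genes over that of the 8 slow or cardiac genes was 44.5, 40.9 and 37.4 in T.chuii, 36.7, 24.2 and 30.4 in DES and 28.2, 21.1 and 25.7 in CON. T.chuii lay above DES and CON throughout, and DES overlapped with CON. The means were 41.0 ± 3.55 in T.chuii, 30.5 ± 6.25 in DES and 25.0 ± 3.59 in CON (SD, n = 3). Tnni2 averaged 1363 ± 968 FPKM in T.chuii, 487 ± 391 in DES and 264 ± 163 in CON, and Tnni1 21.1 ± 12.3 FPKM in T.chuii, 12.9 ± 9.70 in DES and 6.02 ± 2.93 in CON (SD, n = 3). The ratio of Tnni2 to Tnni1 FPKM was 70.3, 61.0 and 51.9 in T.chuii, 39.7, 29.4 and 46.8 in DES and 48.3, 32.0 and 43.2 in CON, with T.chuii again above the others. Fast and slow genes had similar median transcript lengths, 1082 and 1104 bases, while structural genes had a median of 2175 bases. Fast genes ranged from 700 to 3611 bases and slow or cardiac genes from 721 to 3922 bases. These medians do not weight genes by level, as the summed FPKM does. Whether fast and slow genes differ in their response was not tested.

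**Figure D4:**
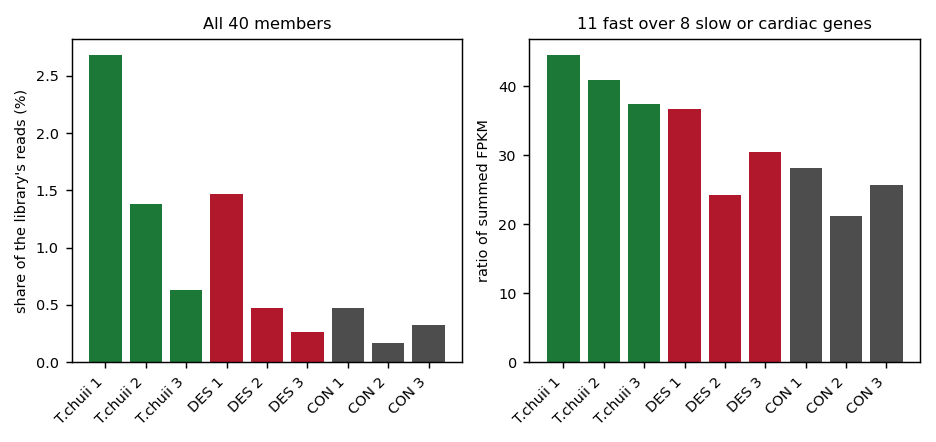
Share of reads of the 40 members in percent (left) and ratio of summed FPKM of 11 fast over 8 slow or cardiac genes (right), as bars for each library in the order T.chuii, DES, CON. The ratio runs from 37.4 to 44.5 in T.chuii, above all other libraries, while the share in DES overlaps with both groups.

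Short genes as a whole also differed in level between libraries. Among all genes with a mean over 1 CPM, those under 1000 bases lay 0.53 above their mean in T.chuii 1 and 0.49 above in DES 3 on the log2 scale, and 0.45 below in DES 2 and 0.37 below in CON 2. In T.chuii 1 the members lay further above their mean than this in every length range. There, the 9 members under 1000 bases lay 2.53 above and the 5 members of at least 5000 bases 1.85 above. The same short and long members lay at 0.09 and -0.01 in T.chuii 3 and at -0.74 and -0.16 in DES 2. They lay at 0.99 and 1.53 in DES 1 and at -0.69 and -1.44 in DES 3. What part transcript length has in the differences of the members was not tested.

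Muscle genes outside the 40 went the same way in mean. Of 83 such genes in 5 lists, 79 were in the tables, and 73 of them had a higher mean in T.chuii than in CON (median log2 change 1.61). The lists had been chosen with results of these data known. In the myosin heavy chain list all 9 had a higher mean, Myh4, the fast IIb chain, at 571, 391 and 141 CPM in T.chuii, 403, 117 and 32.8 CPM in DES and 95.7, 17.5 and 36.2 CPM in CON (log2 change 3.03 ± 0.90). Myh1, the fast IIx chain, measured 257, 153 and 62.2 CPM in T.chuii, 193, 46.1 and 25.9 CPM in DES and 49.4, 33.6 and 34.6 CPM in CON (log2 change 1.82 ± 0.68). Myh13, the superfast chain of eye muscles, was singled out after its values were seen. It had 261, 40.2 and 13.5 CPM in T.chuii, 177, 21.1 and 0.690 CPM in DES and 5.31, 1.34 and 3.29 CPM in CON. It made up 20.3%, 5.55% and 4.93% of the FPKM of the 9 heavy chains in T.chuii, 18.9%, 8.21% and 0.712% in DES and 2.44%, 1.39% and 2.71% in CON. The T.chuii shares lay above those of CON, while DES 3 lay below every other library.

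Among 22 genes of the M-band and filaments, 21 had a higher mean in T.chuii than in CON, and 16 of 19 triad and reticulum genes and all 14 energy genes did. Tpm1, alpha-tropomyosin, was at 1579, 682 and 371 CPM in T.chuii, 716, 265 and 232 CPM in DES and 318, 195 and 247 CPM in CON and had a log2 change of 1.57 ± 0.54. Lmod3, a thin filament nucleator, had a log2 change of 2.56 ± 0.67, Hrc, a calcium-binding reticulum protein, of 2.51 ± 0.77 and Ampd1, the muscle AMP deaminase, of 2.57 ± 0.68. Asph and Bin1, the most abundant of the triad and reticulum list, had log2 changes of -0.24 ± 0.30 and 0.23 ± 0.20. Tpm3, another tropomyosin, had 0.58 ± 0.42 and Slc25a4, a mitochondrial ADP/ATP carrier, 0.91 ± 0.30. Car3, a carbonic anhydrase of muscle and fat, had a log2 change of 0.97 ± 0.60 in T.chuii vs CON and 2.08 ± 0.58 in T.chuii vs DES. Of 15 junction and regulator genes 13 had a higher mean, such as Myf6, a muscle transcription factor (1.89 ± 0.60) and Mef2c (0.68 ± 0.28), whereas Mef2a was at -0.14 ± 0.19. None of these passed the test.

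Smooth muscle markers, which the iris and ciliary muscles would carry, overlapped between the groups. The 8 smooth muscle markers summed to 650.5, 522 and 320.3 CPM in T.chuii, 565, 425 and 293 CPM in DES and 360.3, 732 and 417 CPM in CON, with a median log2 change of 0.07 in T.chuii vs CON, and CON 2 was highest. The 7 heart markers summed to between 14.0 and 19.2 CPM in T.chuii, 10.1 and 15.5 CPM in DES and 7.73 and 14.4 CPM in CON. Ryr2 held 3.12, 13.2 and 9.49 CPM of this in T.chuii. Ryr2, Myh6, Tnni3 and Tnnt2 are also in the lists of other muscle genes above. Of the 7, 5 had a higher mean in T.chuii than in CON and 2 a lower one. Their log2 changes ran from -0.19 for Nppb to 1.84 for Myh6, with a median of 0.41. Fat cell markers were high in T.chuii, as the members were, but ranked differently within DES. The 3 of 7 adipocyte markers in the tables (Cfd, Fabp4 and Retn) summed to 1559, 327 and 84.4 CPM in T.chuii, 38.5, 11.7 and 43.5 CPM in DES and 29.5, 4.67 and 19.2 CPM in CON, and T.chuii lay above the other groups. Their median log2 change was 4.42 in T.chuii vs CON, 4.05 in T.chuii vs DES and 0.04 in DES vs CON. DES 3, the lowest DES library for the summed members, had the highest sum of these markers, close to that of DES 1. Within DES, Fabp4 was highest in DES 1 (36.6 CPM, against 34.1 CPM in DES 3). Cfd and Retn were highest in DES 3, at 6.29 and 3.09 CPM. The 6 of 7 myelin markers in the tables summed to 1199, 171 and 368 CPM in T.chuii, 142, 95.5 and 75.9 CPM in DES and 95.6, 903 and 113 CPM in CON. All 6 had a higher mean in T.chuii than in DES (median log2 change 1.99). Of these, 3 had an unadjusted limma-voom p under 0.05 (0.747% of all genes were higher at such a p), none of them called. In T.chuii vs CON their median was 0.99 and in DES vs CON -1.01, and CON 2 lay above T.chuii 2 and T.chuii 3. The 6 tendon markers summed to between 210.3 and 360.0 CPM in T.chuii, 186 and 361 CPM in DES and 349 and 473 CPM in CON. The 5 erythroid markers summed to between 284.5 and 2840.2 CPM in T.chuii, 379 and 587 CPM in DES and 158 and 891 CPM in CON, again with T.chuii 1 highest. What part the fat, myelin and erythroid markers have in the differences of the 40 genes was not tested. Since no gene in the tables had a count of 0, their presence alone shows little.

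The size of the differences depended on single libraries. Without T.chuii 1, DES 1 and CON 2 together, the members' median log2 change was 1.17 in T.chuii vs CON (39 of 40 higher in mean), 1.29 in T.chuii vs DES (39 higher) and -0.08 in DES vs CON, where 13 members had a higher mean. With 2 libraries left in each group, T.chuii lay above CON throughout for 33 members (19.7% of all genes) and above DES for 34 (14.9%), while no member separated DES from CON (13.3%). Single libraries were also left out in turn. The DES vs CON median was 0.31 without DES 1 and 0.58 without CON 2. The T.chuii vs DES median was 0.64 without DES 3, 0.66 without T.chuii 1, 1.85 without DES 1 and 1.74 without T.chuii 3. In T.chuii vs CON the median stayed between 1.63 and 2.74 with each library left out in turn. No member was called in any of these fits.

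**Figure D5:**
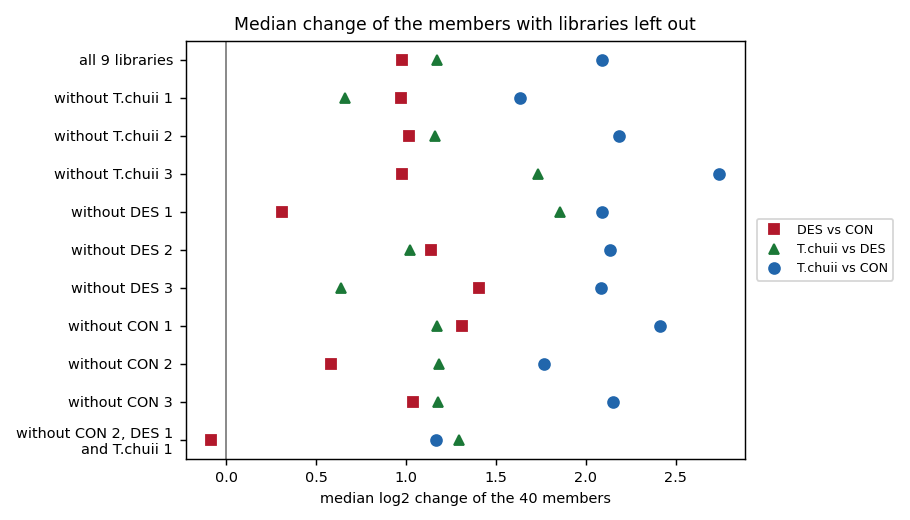
Median log2 change of the 40 members (horizontal axis) with all 9 libraries and with libraries left out (rows), in DES vs CON (squares), T.chuii vs DES (triangles) and T.chuii vs CON (circles). T.chuii vs CON stays at 1.17 or above in every row, whereas DES vs CON reaches -0.08 without the 3 libraries that stand apart.

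Promoter windows show which letters the members share near their starts. RefSeq windows of 300 bases (250 before and 50 after an annotated start, GRCm38.p6) were available for 31 of the 40 members, in 38 windows. Both strands were searched. An E-box, CANNTG, the motif of myogenic factors, was in 33 of 38 windows (72.3% of all 32851 windows). The MEF2 site was in 4 (3.19% of all), the CArG box, bound by serum response factor, in 5 (1.63%), a TATA box, TATAAA, in 6 (13.6%) and the MCAT element, CATTCC, in 8 (14.7%). A match is a description of letters, not a bound site. Windows of 4 members follow as examples, chosen after the matches and the changes were seen: the members with the highest log2 changes in T.chuii vs CON, Actc1 and Nmrk2, and MEF2-bearing Ttn and Pvalb. In Actc1, capitals mark the CArG box and a TATAAA match that lies after the annotated start, within the last 50 bases. In the other windows they mark the TATA box in Nmrk2 and the MEF2 site in Ttn and Pvalb. All 4 windows lie on the minus strand, written 5′ to 3′, at chr2:114052826-114053125, chr10:81201988-81202287, chr2:76982498-76982797 and chr15:78206351-78206650.
Actc1: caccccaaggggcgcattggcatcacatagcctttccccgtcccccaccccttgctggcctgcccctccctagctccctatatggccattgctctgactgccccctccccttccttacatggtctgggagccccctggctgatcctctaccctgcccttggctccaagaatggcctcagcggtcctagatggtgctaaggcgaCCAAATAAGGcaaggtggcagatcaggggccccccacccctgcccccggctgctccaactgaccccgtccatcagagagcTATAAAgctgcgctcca
Nmrk2: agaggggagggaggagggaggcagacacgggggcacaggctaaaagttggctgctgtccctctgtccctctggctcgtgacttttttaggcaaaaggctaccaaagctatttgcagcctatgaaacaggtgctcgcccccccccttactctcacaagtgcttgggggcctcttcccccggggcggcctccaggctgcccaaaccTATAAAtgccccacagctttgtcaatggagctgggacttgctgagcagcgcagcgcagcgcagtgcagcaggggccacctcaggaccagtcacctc
Ttn: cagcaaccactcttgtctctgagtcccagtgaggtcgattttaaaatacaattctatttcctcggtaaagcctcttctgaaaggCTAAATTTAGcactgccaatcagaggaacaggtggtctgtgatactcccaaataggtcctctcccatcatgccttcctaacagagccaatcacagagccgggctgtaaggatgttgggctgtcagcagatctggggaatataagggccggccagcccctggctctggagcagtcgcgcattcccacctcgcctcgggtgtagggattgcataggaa
Pvalb: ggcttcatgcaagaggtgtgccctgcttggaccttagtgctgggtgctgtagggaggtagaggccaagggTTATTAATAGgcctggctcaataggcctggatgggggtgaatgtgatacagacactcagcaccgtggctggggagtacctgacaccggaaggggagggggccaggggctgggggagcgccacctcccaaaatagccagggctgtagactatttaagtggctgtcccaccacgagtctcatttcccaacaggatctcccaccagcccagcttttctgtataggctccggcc

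Reads of some members may not be theirs alone. Exons of 16 of the 40 genes overlap another gene on the opposite strand, and none overlaps one on the same strand. Examples are Atp2a1 with Rabep2, Tnnc2 with Ube2c and Mb with Apol6. The library kit keeps strand per the labels, but the strand setting of the counting was not given in the sources used here.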

How the data were processed

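RNA from whole eyeballs was sequenced in 9 libraries, grouped by the sample titles. Per the labels' protocols the mRNA library kit was stranded. The submitters' processing notes name HISAT2 2.1.0, Bowtie2 2.3.4.1, StringTie 2.1.3b, FastQC 0.11.7 and Trimmomatic 0.38, and the build mm10. The deposited tables hold whole-number read counts and FPKM values, per the file headers. Rows differ in width, because the transcript field is split over several cells, and values were therefore taken by position from the right. No count was 0 and the smallest was 1, so a gene at 0 could not be seen. The counting step and the row filter are not given in the sources used here.

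Genes were kept at the equivalent of 10 reads in a median library in 3 or more libraries and a total of 15 reads or more. Library scaling used trimmed means of M-values, and the test was limma-voom on the counts (limma 3.58.1, R 4.3.3), with 3 group means, 6 residual degrees of freedom and two-sided p-values. Limma-voom was used because a check of columns by position refused the uneven rows as a counts column, and a quasi-likelihood count test that had been planned beside it was not run. The code was tested on simulated counts. Scaled CPM values use the same factors, changes are log2 ± standard error, and levels are mean ± SD. Coordinates, lengths and promoters come from annotations of GRCm38, the assembly behind mm10. Tables and figures were made with Python 3.11.15, pandas 2.3.3 and matplotlib 3.10.9.

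The members, classes, other lists and named genes were chosen with earlier results of these data known. Named genes were 21 members fixed by class, the members with the smallest p and the highest and lowest log2 change in each comparison, and in each other muscle list the 2 most abundant genes and the one with the smallest p in T.chuii vs CON. The length ranges, the MCAT search, the counts within pairs and Myh13 were added after values were seen. Same-numbered T.chuii and DES libraries deviated together from their group means (r = 0.56, 0.34 and 0.17), so the numbers were treated as pairs there. This pairing rests on the data alone, since the file headers number the libraries differently. T.chuii 3 correlated more with DES 2 (r = 0.46) than with DES 3, so the correlations do not single out the same-numbered pairs. For T.chuii vs CON (r = -0.30, -0.37 and 0.29) and DES vs CON (r = -0.30, -0.24 and 0.23) the numbers did not pair the libraries.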

Additional observations from a re-analysis of the deposited data

How the results depend on the processing

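No member was called under any of the 17 other settings per comparison, nor in the pair fit added for T.chuii vs DES. The members' median log2 change ranged from 1.63 to 2.74 in T.chuii vs CON, from 0.64 to 1.85 in T.chuii vs DES and from 0.31 to 1.40 in DES vs CON with each library left out in turn. Without T.chuii 1, DES 1 and CON 2 together it was 1.17 in T.chuii vs CON and -0.083 in DES vs CON, where 13 members had a higher mean. There, with 2 libraries left in each group, 34 members separated T.chuii from DES (14.9% of all genes). For T.chuii and CON it was 33 members (19.7% of all genes). In these fits 1 gene was called in each of T.chuii vs DES and T.chuii vs CON. The cause was not tested. Over all genes, 0 to 17 were called in T.chuii vs CON and 0 to 15 in DES vs CON with single libraries left out, the highest numbers without DES 2, and 2 in T.chuii vs CON with sample quality weights, under which the members' medians were 1.56 in T.chuii vs CON, 0.99 in T.chuii vs DES and 0.59 in DES vs CON. With the replicate block, 0 genes were called in each comparison, and 1 (no member) when only T.chuii and DES libraries were fitted. The block changed no other call. Among 23 named members, the sign differed in 2 of 391 fits of T.chuii vs CON, 4 of 414 of T.chuii vs DES and 18 of 391 of DES vs CON, 16 of these without the 3 libraries. From summed CPM the ratio of fast to slow genes was 28.6, 23.8 and 23.4 in T.chuii, 21.7, 15.8 and 18.5 in DES and 17.4, 11.6 and 15.9 in CON, so T.chuii again lay above the rest. Counts of members whose groups do not overlap, and the settings for means and for pairs of T.chuii and DES libraries, were added after seeing the data. Depth limits little here, since the lowest count of a member in any library was 36 reads, and the spread between libraries far exceeded counting error.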
